A study of Mus musculus with 12 samples.

Results

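The copines are a family of 9 genes in the mouse, *Cpne1* to *Cpne9*, and all 9 were found by symbol among the 24480 genes counted in the dorsolateral geniculate nucleus (dLGN) of 2 conditional mouse lines. *Cpne4* and *Cpne9* were picked for their decrease in these same libraries, so their values are a description and carry no test. The other 7 were taken by name, because they complete the family, and were tested. RNA-seq was measured on 12 libraries at postnatal day 0 (P0), each from the dLGNs of 3 pooled animals, with 3 libraries in each of 4 groups. Mutants were *Sox2flox/flox;Ror-alphaCre* or *Nr2f1 flox/flox;Ror-alphaCre*, and their controls were littermates without Cre that carried floxed alleles of the same gene. The labels of the *Nr2f1* controls name the Cre allele and in the same entry say that there is no Cre. Cre is driven by the *Rora* locus, which is active in differentiating sensory thalamic neurons, and the share of dLGN cells with the deletion was not measured here.

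Copines are cytosolic proteins that move to membranes when calcium rises. Each has a pair of C2 domains, which bind calcium and phospholipids and are also found in synaptotagmins and protein kinase C, followed by an A domain, related to that of integrins, which binds other proteins. CPNE6 (copine-6, also called N-copine) is a brain copine known from hippocampal dendritic spines, and CPNE1 and CPNE3 are found in many tissues. The dLGN relays retinal input to the visual cortex, and *Sox2* and *Nr2f1* encode transcription factors of its neurons.

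The genes lie on 8 chromosomes, *Cpne2* and *Cpne7* both on chromosome 8. *Cpne4* is the longest, at chr9:104566701-105034544 (GRCm38.p6, plus strand), and its longest annotated transcript has 16 exons. *Cpne8* lies at chr15:90487481-90679388 (minus strand) and *Cpne9* at chr6:113282283-113305571 (plus strand). *Cpne6* is the shortest, at chr14:55510445-55517435 (plus strand). The sequences before the starts of the 3 copines with lower levels in both mutants are shown because the results turn on these genes, and that of *Cpne1* because it held the only motif found. They are RefSeq sequences of GRCm38.p6 from up to 250 bases before a start, 5′ to 3′ on the gene's strand, without bases that lie in an annotated exon. Capitals mark a match to a motif. Both *Cpne4* stretches lie inside the gene span given above, before starts further along the gene.

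*Cpne4* chr9:104569405-104569482 (plus strand): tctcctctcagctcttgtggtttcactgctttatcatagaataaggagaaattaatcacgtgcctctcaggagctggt
*Cpne4* chr9:104587808-104588057 (plus strand): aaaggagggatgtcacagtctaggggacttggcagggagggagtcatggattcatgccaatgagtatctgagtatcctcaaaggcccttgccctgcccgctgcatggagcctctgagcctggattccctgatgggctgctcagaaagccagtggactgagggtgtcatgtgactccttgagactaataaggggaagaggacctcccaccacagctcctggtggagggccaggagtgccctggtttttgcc
*Cpne8* chr15:90679433-90679638 (minus strand): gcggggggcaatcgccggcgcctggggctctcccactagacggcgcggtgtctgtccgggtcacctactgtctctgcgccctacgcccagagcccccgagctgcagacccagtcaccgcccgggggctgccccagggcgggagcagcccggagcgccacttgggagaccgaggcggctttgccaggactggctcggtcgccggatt
*Cpne9* chr6:113282057-113282282 (plus strand): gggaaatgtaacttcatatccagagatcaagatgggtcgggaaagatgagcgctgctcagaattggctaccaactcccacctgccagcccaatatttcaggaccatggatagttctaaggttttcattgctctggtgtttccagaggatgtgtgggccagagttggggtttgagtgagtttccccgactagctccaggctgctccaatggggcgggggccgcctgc
*Cpne1* chr2:156111979-156112215 (minus strand): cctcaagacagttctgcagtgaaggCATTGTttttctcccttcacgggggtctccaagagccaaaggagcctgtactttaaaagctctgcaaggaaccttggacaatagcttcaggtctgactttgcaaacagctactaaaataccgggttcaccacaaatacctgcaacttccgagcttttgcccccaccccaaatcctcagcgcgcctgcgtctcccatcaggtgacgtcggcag

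Windows of 250 bases before a start were given for 6 of the 9 copines, 7 windows in all since *Cpne4* had 2, and *Cpne3*, *Cpne6* and *Cpne7* were not analysed here. They were searched on both strands for ACAAAG and ACAATG, letters of SOX binding sites, and for AGGTCA, a half-site of nuclear receptors such as NR2F1. These letters were found in 16.5%, 10.7% and 14.0% of 32851 mouse promoters of the same length, and at least one of the 3 in 35.4%. The only match in a copine window was ACAATG on the reverse strand before *Cpne1*. No match lay in the windows of *Cpne2*, *Cpne4*, *Cpne5*, *Cpne8* or *Cpne9*, which says only that these letters are not there. The windows of *Cpne2* and *Cpne4* lie inside the gene spans, so the bases before those spans were not searched. The GC content of the whole windows was 59.6% and 56.8% at the *Cpne4* starts, 56.4% at *Cpne9* and 54.0% at *Cpne1*. It was 74.4% at *Cpne8*, 74.4% at *Cpne2* and 76.4% at *Cpne5*, against an upper quartile of 61.2% over all promoters.

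Total counts per library lay between 39293465 and 50095344. *Sox2* fell to 37.8% of its control level in *Sox2* mutants (edgeR FDR 4.83e-05), and *Nr2f1* to 33.6% in *Nr2f1* mutants (FDR 3.48e-04), with no overlap between groups. *Sox2* was also lower in *Nr2f1* mutants, at 68.1% of control (FDR 0.00635), whereas *Nr2f1* at 76.3% of control in *Sox2* mutants did not pass (FDR 0.0559). Of 9 thalamic glutamatergic markers, 5 fell in *Sox2* mutants, *Rora* and *Slc17a6* (the glutamate transporter of thalamic neurons) among them, and *Gbx2* rose. Over all genes tested, 4.19% were called lower and 3.9% higher in *Sox2* mutants. Cre is inserted in *Rora* itself, and by the authors' account only mutants carry it. They thought it unlikely that the insertion lowered *Rora*. In *Nr2f1* mutants *Lef1* and *Zic1* fell and *Prox1* rose. The summed level of these 9 markers was 2640 to 3230 CPM (read counts scaled to library size after TMM normalization) in *Sox2* controls and 2130 to 2430 in *Sox2* mutants, and 3360 to 3680 in *Nr2f1* controls and 2730 to 3230 in *Nr2f1* mutants. In *Sox2* mutants 9 of 10 microglial and 6 of 8 astrocyte markers rose, with sums of 304 to 359 against 146 to 164 CPM and of 2610 to 3010 against 1670 to 2060 CPM. In *Nr2f1* mutants 0 of the microglial markers passed edgeR's test and 1 of the astrocyte markers rose, and their sums were 153 to 187 against 120 to 141 CPM and 1550 to 1750 against 1430 to 1460 CPM. Sums of other lists also differed between mutants and controls, some of them with overlap. At most 1 marker of each passed in a line, apart from pallial and hippocampal markers, of which 2 of 9 rose in *Sox2* mutants. Oligodendrocyte lineage markers (1 of 8 rose in each line) summed to 709 to 820 against 576 to 703 CPM in *Sox2* mutants and 529 to 565 against 496 to 514 CPM in *Nr2f1* mutants, and 11 GABAergic markers to 540 to 566 against 435 to 498 CPM in *Sox2* mutants. The 7 meningeal fibroblast markers summed to 1490 to 3310 against 982 to 1930 CPM in *Sox2* mutants and to 1080 to 2450 against 762 to 1140 CPM in *Nr2f1* mutants, which overlapped. All markers of these lists were detected. The part of these shifts in the copine results was not tested, and a lower level in bulk tissue cannot tell fewer cells of a type from less RNA per cell.

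*Cpne4* and *Cpne9*, the copines picked from these libraries, were expressed in every control library and lower in every mutant library of their line. *Cpne4* in the *Sox2* line was at 65.4, 63.9 and 52.3 CPM in controls and at 27.1, 19.0 and 22.0 CPM in mutants. In the *Nr2f1* line it was at 75.4, 74.0 and 75.6 CPM in controls and at 20.6, 27.9 and 18.0 CPM in mutants. The groups did not overlap in either line, and the controls of the *Nr2f1* line were closer together than those of the *Sox2* line. *Sox2* mutants held 37.5% of the mean of their controls, a log2 fold change of -1.42 ± 0.13 (SE, n = 3 per group), and *Nr2f1* mutants 29.6%, -1.76 ± 0.13.

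*Cpne9* was at 55.8, 58.5 and 58.6 CPM in *Sox2* controls and at 19.0, 17.3 and 18.1 CPM in *Sox2* mutants. In the *Nr2f1* line it was at 42.7, 46.2 and 43.3 CPM in controls and at 25.4, 33.8 and 18.6 CPM in mutants. The *Sox2* libraries were tight within both groups, while the *Nr2f1* mutants were spread out, all below their controls, with MUT_B the highest and MUT_C the lowest. *Sox2* mutants held 31.6% of their control mean, -1.66 ± 0.07 on the log2 scale, and *Nr2f1* mutants 58.8%, -0.77 ± 0.17. Without the *Nr2f1* mutant library MUT_B, the highest of the 3, the latter was -1.01, and without MUT_C, the lowest, it was -0.58. Among *Nr2f1* mutants MUT_B had the most *Nr2f1* left, 151 CPM against 105 CPM in MUT_A and 101 CPM in MUT_C. Of these mutants it also held the lowest sum of 7 meningeal fibroblast markers, 1080 against 2010 and 2450 CPM, and the highest *Cpne4*. In the *Sox2* controls CTRL_1, CTRL_2 and CTRL_3 that sum was 993, 982 and 1930 CPM. Of these, CTRL_3 had the highest *Cpne9*, at 58.6 CPM, and the lowest *Cpne4*, at 52.3 CPM. In the *Sox2* mutants MUT_1, MUT_3 and MUT_4 the sum was 1490, 3310 and 1780 CPM, with *Cpne9* at 19.0, 17.3 and 18.1 CPM. The part of fibroblasts, or of the *Nr2f1* left in a library, was not tested. Set side by side, *Cpne4* had the larger decrease in *Nr2f1* mutants and *Cpne9* in *Sox2* mutants. The difference of the log2 fold changes, *Sox2* minus *Nr2f1*, was 0.35 for *Cpne4* and -0.89 for *Cpne9*, both as a description. Whether the lines differ cannot be tested for these genes, which were picked for their decrease in the same libraries. With single libraries left out the difference for *Cpne9* ranged from -1.08 to -0.64, the latter without MUT_B.

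**Figure D1:**
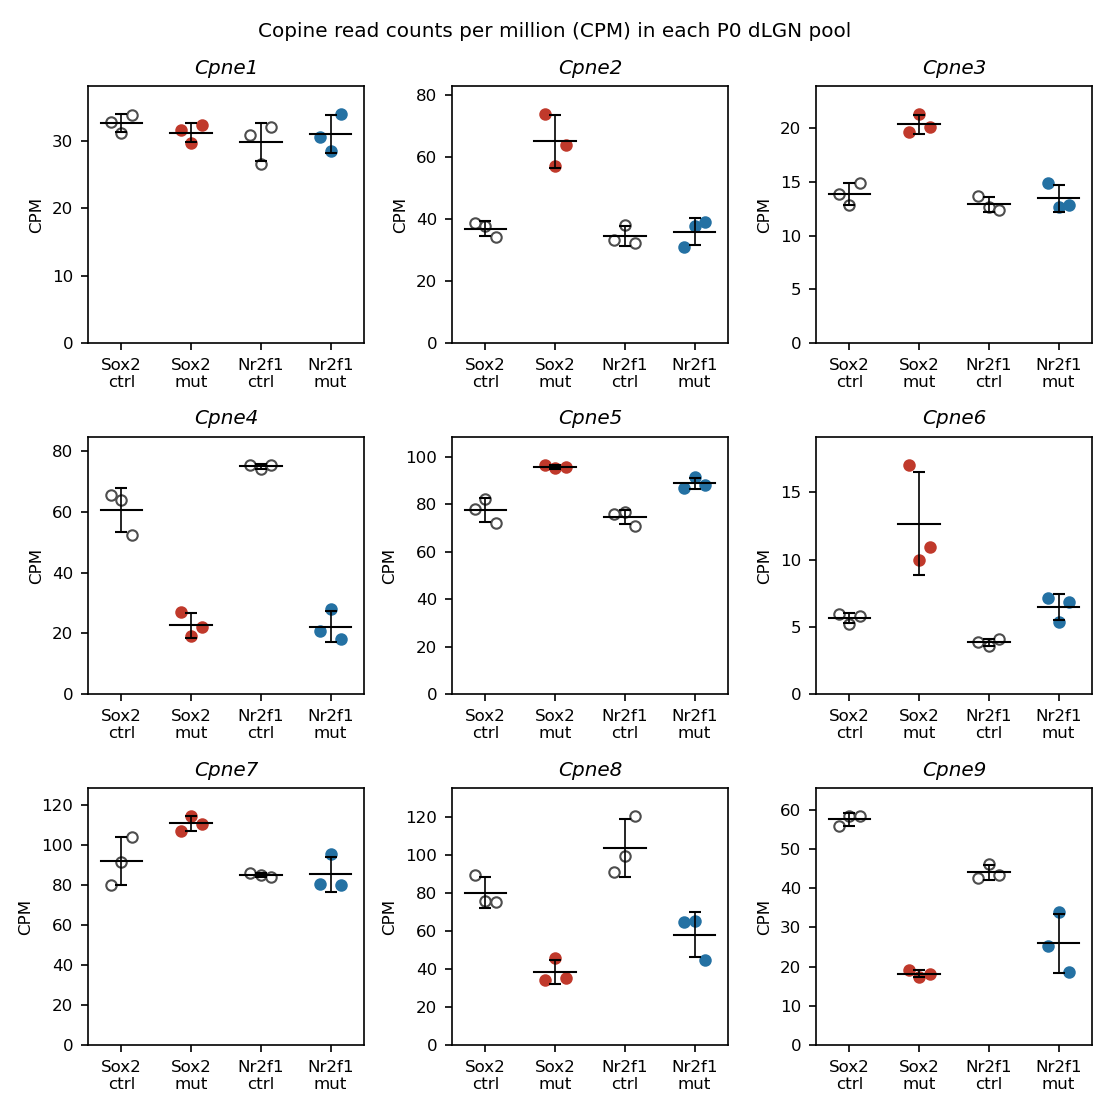
CPM (y axis, from 0) of each copine in the 12 libraries, with open circles for controls, red for *Sox2* mutants and blue for *Nr2f1* mutants, and bars for the mean and SD of 3 libraries. *Cpne4*, *Cpne8* and *Cpne9* are lower in all mutant libraries than in all controls of their line, *Cpne2* and *Cpne3* are higher in *Sox2* mutants alone among the 4 groups, and *Cpne1* overlaps in both lines.

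Of the 7 tested copines, 1 fell in *Sox2* mutants at an FDR below 0.01, where 4.19% of 15602 genes tested were called lower, and 3 rose, where 3.9% were called higher. In *Nr2f1* mutants 1 of the 7 fell, against 1.32% of 15600 genes, and 0 rose, against 1.22%, by edgeR's quasi-likelihood test. At an unadjusted p below 0.05, 2 of the 7 were higher in *Nr2f1* mutants, as were 13.5% of all genes, and DESeq2 called the same number higher. For 6 of the 7 the *Sox2* mutant libraries lay apart from all *Sox2* controls, against 37.9% of all genes tested, and for 3 of the 7 this held between *Nr2f1* mutants and controls, against 28.6%. With 7 genes these shares carry little precision.

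*Cpne8* was the copine that fell in both mutants. It was at 89.7, 75.9 and 75.1 CPM in *Sox2* controls and at 34.2, 45.9 and 35.0 CPM in *Sox2* mutants, and at 91.2, 99.4 and 121 CPM in *Nr2f1* controls and at 64.8, 65.1 and 44.6 CPM in *Nr2f1* mutants. Every mutant library was below every control library of its line. *Cpne8* fell by 1.06 ± 0.12 on the log2 scale in *Sox2* mutants (47.8% of control, FDR 4.41e-04, edgeR) and by 0.84 ± 0.15 in *Nr2f1* mutants (56.0% of control, FDR 0.00920). The decrease in *Sox2* mutants passed in all 15 alternative settings tried. That in *Nr2f1* mutants passed in 11 of 15, and with CTRL_B, CTRL_D, CTRL_E or MUT_A left out its FDR was 0.0206, 0.0316, 0.0338 and 0.0282. The decreases differed between the lines by -0.22 (95% confidence interval -0.68 to 0.24, FDR 0.708), an interval that spans 0 and allows a larger fall in either line. Of the 75-base windows of *Cpne8* transcripts, 1.31% also occur in *Adamts13* or *Fmo1*.

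*Cpne2*, *Cpne3* and *Cpne6* rose in *Sox2* mutants. *Cpne2* was at 38.6, 37.8 and 34.1 CPM in *Sox2* controls and at 74.0, 57.2 and 63.7 CPM in mutants, a log2 fold change of 0.82 ± 0.10 (176% of control, FDR 6.53e-04, edgeR) that passed in all 15 alternatives. In the *Nr2f1* line it was at 33.3, 38.2 and 32.2 CPM in controls and at 31.0, 37.6 and 39.1 CPM in mutants, with overlapping groups and a log2 fold change of 0.06 (95% confidence interval -0.17 to 0.28). *Sox2* mutants thus had the highest *Cpne2* levels of the 4 groups. The difference between the lines was 0.77 (0.45 to 1.09) with an FDR of 0.0110, just outside the threshold. It passed in 6 of 19 alternatives, in which the FDR ranged from 9.04e-05 to 0.0372 over all 19.

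*Cpne3*, which encodes a copine found in many tissues, was at 13.9, 12.8 and 14.9 CPM in *Sox2* controls and at 19.7, 21.4 and 20.1 CPM in mutants. Its log2 fold change was 0.56 ± 0.09 (147% of control, FDR 0.00387, edgeR). The FDR was between 0.0124 and 0.0232 when CTRL_1, CTRL_2, MUT_3 or MUT_4 was left out. *Cpne3* in the *Nr2f1* line was at 13.7, 12.6 and 12.4 CPM in controls and at 14.9, 12.6 and 12.8 CPM in mutants, which overlapped (log2 fold change 0.06, FDR 0.752). The difference between the lines was 0.50 (95% confidence interval 0.22 to 0.78) and did not pass (FDR 0.0553).

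*Cpne6*, the hippocampal copine, had the largest rise in *Sox2* mutants and the lowest counts, 163 to 701 per library. It was at 5.92, 5.21 and 5.80 CPM in *Sox2* controls and at 17.1, 9.98 and 11.0 CPM in mutants, a log2 fold change of 1.16 ± 0.20 (224% of control, FDR 0.00359, edgeR). Library MUT_1 was the highest, and without it the log2 fold change was 0.90 (FDR 0.00325). Without CTRL_1 or CTRL_2 the FDR was 0.0175 and 0.0215. In the *Nr2f1* line *Cpne6* was at 3.88, 3.56 and 4.09 CPM in controls and at 7.18, 5.37 and 6.82 CPM in mutants, with no overlap. The log2 fold change there was 0.75 ± 0.15 with an FDR of 0.0161, which did not pass, and it passed in 5 of 15 alternatives. The difference between the lines was 0.42 (95% confidence interval -0.13 to 0.98, FDR 0.479).

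Markers of pallial and hippocampal neurons, which adjoin the dissected region, were read beside *Cpne6*. In *Sox2* mutants *Bcl11b* and *Slc17a7* rose and the other 7 of 9 did not pass. The summed level of the 9 was 65.1, 49.7 and 36.5 CPM in *Sox2* controls and 169, 62.1 and 100 CPM in mutants. It was highest in MUT_1, as *Cpne6* was, and lowest among mutants in MUT_3, as *Cpne6* was. In the *Nr2f1* line 0 of the 9 passed edgeR's test, and the sum was 47.9, 45.6 and 36.8 CPM in controls and 47.1, 39.1 and 54.4 CPM in mutants, which overlapped, while *Cpne6* did not overlap. In the *Sox2* mutants MUT_1, MUT_3 and MUT_4, *Sox2* itself was at 116, 150 and 152 CPM. The part of pallial and hippocampal cells, or of the *Sox2* left in a library, in the *Cpne6* levels was not tested.

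*Cpne5*, *Cpne7* and *Cpne1* did not pass in either line. *Cpne5* was at 78.0, 82.1 and 72.2 CPM in *Sox2* controls and at 96.7, 95.1 and 95.5 CPM in mutants, and at 75.9, 76.7 and 71.0 CPM in *Nr2f1* controls and at 87.0, 91.3 and 88.0 CPM in mutants. The mutants were above the controls in both lines with no overlap, by 0.31 ± 0.07 (FDR 0.0120, edgeR) and 0.25 ± 0.05 (FDR 0.0197) on the log2 scale, both outside the threshold of 0.01. *Cpne5* passed in 7 of 15 alternatives for *Sox2* mutants and in 3 of 15 for *Nr2f1* mutants. The changes differed between the lines by 0.06 (95% confidence interval -0.10 to 0.22, FDR 0.780).

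*Cpne7* was at 79.9, 91.2 and 104 CPM in *Sox2* controls and at 107, 114 and 110 CPM in mutants, a log2 fold change of 0.27 ± 0.09 (FDR 0.0665, edgeR). Its FDR was 0.00591 without the library CTRL_3, the control nearest to the mutants. *Cpne7* in the *Nr2f1* line was at 85.8, 85.0 and 84.0 CPM in controls and at 80.4, 95.2 and 79.8 CPM in mutants, so that 2 mutants lay below and 1 above all controls. *Cpne1* was between 26.6 and 34.1 CPM in all 12 libraries, with log2 fold changes of -0.07 (95% confidence interval -0.23 to 0.10) and 0.06 (-0.15 to 0.27). It was the copine with the least spread over the 12 libraries, a root mean square of 0.0948 on the log2 scale. Reads of *Cpne1* are less certain, since 3.81% of its 75-base windows also occur in *Rbm12*, which shares 207 exon bases with it and had log2 fold changes of -0.09 and 0.02.

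**Figure D2:**
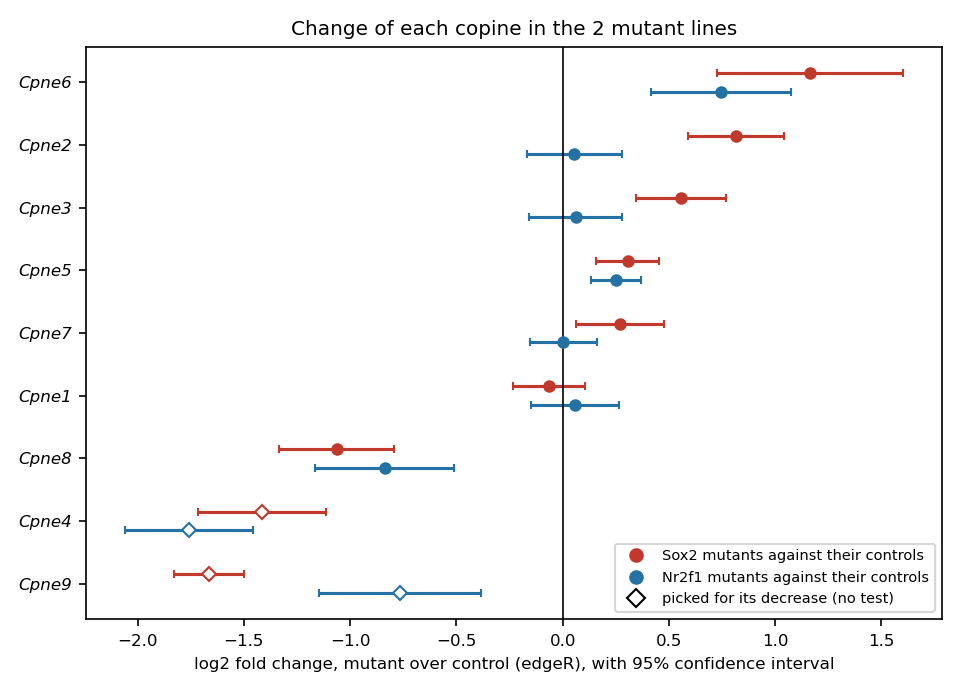
Log2 fold change of mutants over controls (x axis) with its 95% confidence interval for each copine, in *Sox2* mutants (red) and *Nr2f1* mutants (blue), with open diamonds for the 2 genes picked for their decrease. Among the 7 genes taken by name, the intervals of *Cpne8* lie below 0 and those of *Cpne5* and *Cpne6* above 0 in both lines, while those of *Cpne2*, *Cpne3* and *Cpne7* lie above 0 in *Sox2* mutants only and span 0 in *Nr2f1* mutants. The side on which *Cpne4* and *Cpne9* lie was fixed by how they were picked.

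The difference between the lines was tested for the 7 copines by the interaction of line and genotype over the 12 libraries. By edgeR 0 of the 7 passed, against 1.44% of 15989 genes, 2 had an unadjusted p below 0.05, and DESeq2 called 2, *Cpne2* and *Cpne3* in both cases. The intervals of the other 5 spanned 0, that of *Cpne7* by the least (0.27, FDR 0.312). Across all genes tested the median size of a log2 fold change was 0.192 for *Sox2* and 0.125 for *Nr2f1* mutants. The sizes for *Cpne1* lay below these medians in both lines, and those for *Cpne5*, *Cpne6* and *Cpne8* above them in both.

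**Figure D3:**
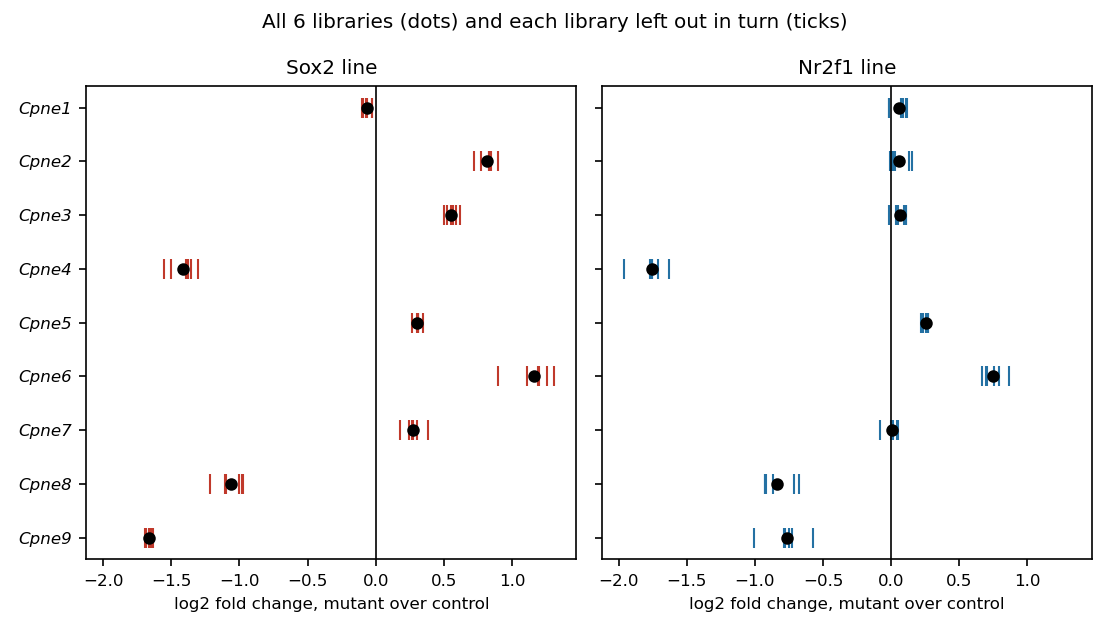
Log2 fold change of mutants over controls (x axis) for each copine with all 6 libraries of a line (black dots) and with each library left out in turn (coloured ticks), the *Sox2* line on the left and the *Nr2f1* line on the right. The ticks of *Cpne8* stay below 0 (as do those of *Cpne4* and *Cpne9*, picked for their decrease) and those of *Cpne5* and *Cpne6* above 0 in both lines, and the ticks of *Cpne1*, *Cpne2*, *Cpne3* and *Cpne7* fall on both sides of 0 in the *Nr2f1* line.

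Levels were compared between genes after division by merged exon length (CPM per kb). In the 6 control libraries the order was *Cpne7* (36.8 ± 3.55, SD), *Cpne8* (24.5 ± 4.51), *Cpne9* (18.3 ± 2.72), *Cpne4* (17.1 ± 2.31), *Cpne2* (15.2 ± 1.21), *Cpne5* (13.3 ± 0.706), *Cpne1* (8.95 ± 0.722), *Cpne3* (2.37 ± 0.169) and *Cpne6* (2.07 ± 0.449). The ranges over libraries did not overlap between *Cpne7* and *Cpne8*, *Cpne5* and *Cpne1*, and *Cpne1* and *Cpne3*. The other 5 neighbouring pairs overlapped. *Cpne8* still lay above the highest *Cpne4* (19.1), *Cpne2* (16.5) and *Cpne5* (14.4) in all 6 libraries, and *Cpne5* was sixth in each of the 6 libraries. *Cpne4* and *Cpne9* stood in opposite order in the controls of the 2 lines, with *Cpne4* at 18.7 to 19.1 and *Cpne9* at 15.4 to 16.6 in *Nr2f1* controls, and at 13.2 to 16.5 and 20.1 to 21.1 in *Sox2* controls. In *Sox2* mutants *Cpne7* stayed first at 46.1 CPM per kb and *Cpne2* came second at 27.7, followed by *Cpne5* at 16.8 and *Cpne8* at 10.2, while *Cpne9* (6.55) and *Cpne4* (5.73) were sixth and seventh. In *Nr2f1* mutants *Cpne7* was first at 35.5, and *Cpne5*, *Cpne8* and *Cpne2* overlapped at means of 15.5, 15.5 and 15.3.

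The 9 levels summed to 138 to 140 CPM per kb in *Sox2* controls and 129 to 136 in *Sox2* mutants, and to 135 to 141 in *Nr2f1* controls and 103 to 121 in *Nr2f1* mutants. In the *Sox2* line the lower *Cpne4*, *Cpne8* and *Cpne9* stood beside a *Cpne2* that took 19.0 to 23.2% of the sum in mutants and 10.4 to 11.9% in controls. *Cpne2* took 12.2 to 16.1% in mutants and 9.74 to 11.8% in controls of the *Nr2f1* line. These sums hold the 2 genes picked for their decrease and are a description.

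**Figure D4:**
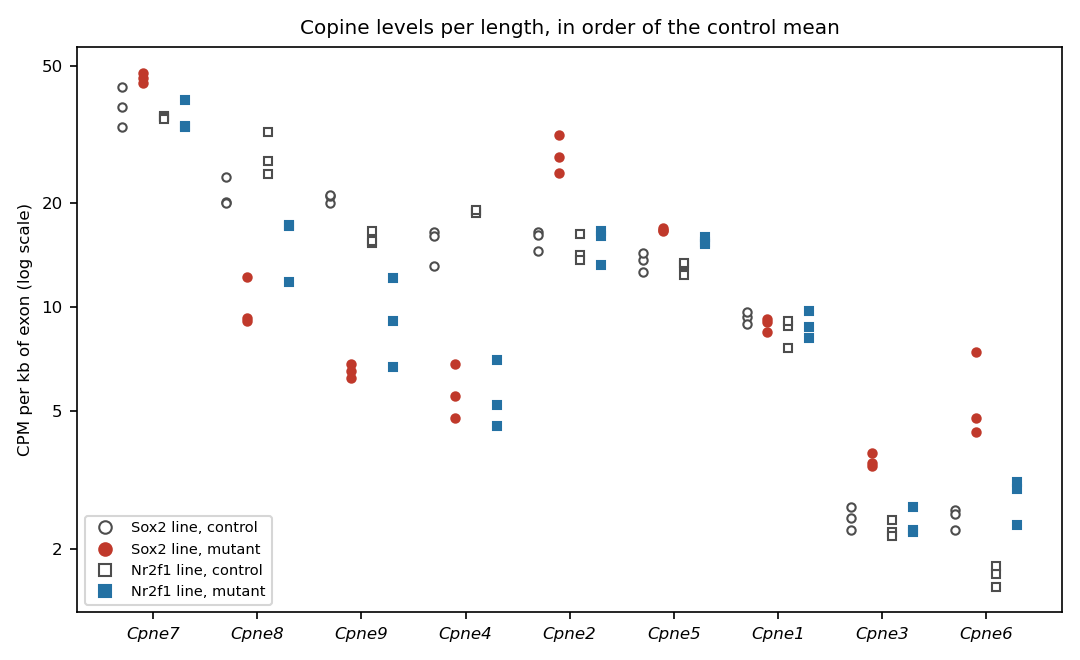
CPM per kb of exon (y axis, log scale) of each copine in every library, genes ordered by their mean over the 6 controls, with circles for the *Sox2* line, squares for the *Nr2f1* line, open symbols for controls and filled ones for mutants. *Cpne7* is the highest in every group, and in mutants *Cpne4* and *Cpne9* drop from the middle of the order to between 4.54 and 12.2.

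Likeness in sequence was set beside likeness in profile. The coding sequences of the 9 genes were 1599 to 1779 bases long and 61.1% to 75.9% identical in pairs. *Cpne5* and *Cpne9* were the closest pair (75.9%), then *Cpne5* and *Cpne8* (73.2%) and *Cpne8* and *Cpne9* (71.2%), so *Cpne5*, which was above its controls in both lines, is nearest in sequence to a pair of genes that were lower. *Cpne4* was closest to *Cpne7* (71.0%), whose log2 fold changes were 0.27 and 0.00. The profile of each gene was its log2 CPM over the 12 libraries minus its mean, and pairs were compared by the root mean square (RMS) difference. *Cpne8* and *Cpne9* differed by 0.357 and *Cpne4* and *Cpne9* by 0.381, whereas *Cpne5* and *Cpne9* differed by 0.812 and *Cpne4* and *Cpne6*, the least alike pair, by 1.36. Across the 36 pairs, which share genes and libraries, Pearson's r between identity and RMS difference was 0.0115, as a description. No 75-base window was shared between copines, so reads of one copine could not match another exactly.

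**Figure D5:**
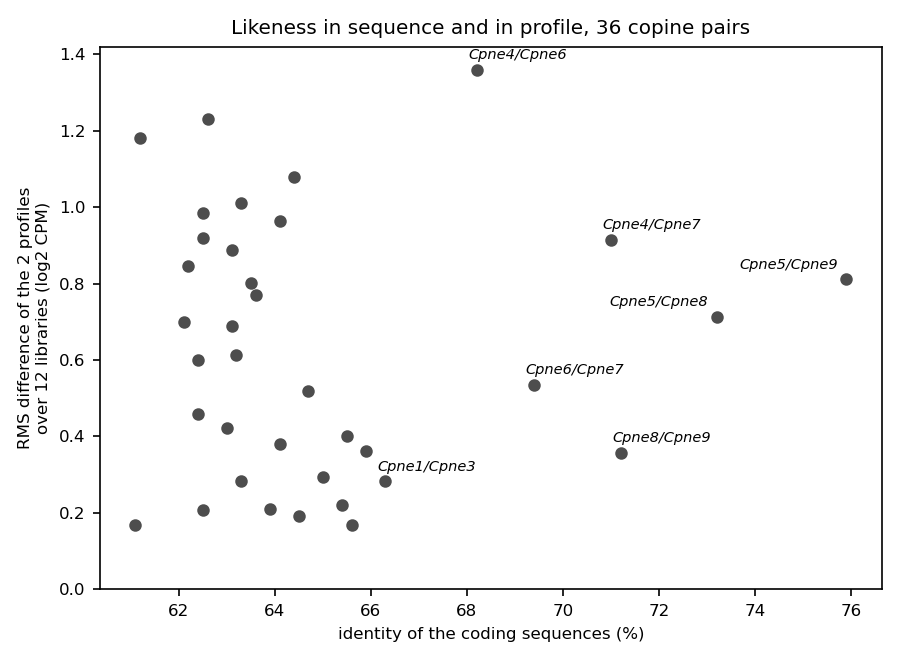
Identity of the coding sequences (x axis, %) against the RMS difference of the profiles over 12 libraries (y axis, log2 CPM) for the 36 pairs of copines, with the pairs over 66% named. The 4 pairs at 71.0% or more lie between 0.357 and 0.915 on the y axis, within the range of the other pairs.

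The genes whose profile was nearest to each copine were named over 15397 genes tested in both lines. *Zmat4* was nearest to *Cpne4*, with an RMS difference of 0.224 and log2 fold changes of -1.51 and -1.59, followed by *Tmem132d* (0.304) and *Fam189a1* (0.305). *Dmrtb1* (0.207), *Iltifb* (0.208) and *Cd160* (0.209) were nearest to *Cpne9*. *AI593442* (0.149), *Ajap1* (0.158) and *Frem3* (0.158) were nearest to *Cpne8*. For the copines that rose, *Lrrn3* (0.118), *Myh7* (0.118) and *Shisa6* (0.121) were nearest to *Cpne2*, *Etfa* (0.0814), *Nfia* (0.0838) and *Slc30a10* (0.0839) to *Cpne3*, and *Mdga1* (0.204), *Cd300a* (0.222) and *Mapk15* (0.225) to *Cpne6*. *Pik3r3* (0.0613), *Ngfrap1* (0.0654) and *Dnajc27* (0.0677) were nearest to *Cpne5*, *Pea15a* (0.0658), *Fam96a* (0.0661) and *Ftl1* (0.0731) to *Cpne7*, and *Uqcc3* (0.0572), *Ints5* (0.0579) and *Zfp383* (0.0585) to *Cpne1*. No other copine was among the 3 nearest of any copine.

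Genes around the copines were read from 3 lists. Of 12 genes for proteins described to bind copines, 0 passed edgeR's test in *Sox2* mutants, 4 had an unadjusted p below 0.05 (2 in each direction, where 18.7% of all genes were higher and 16.3% lower at that p), and DESeq2 called 1, *Erbb2*. Their median log2 fold change was 0.02, against 0.00 over all genes tested. In *Nr2f1* mutants 1 of the 12 passed, against 1.32% of all genes called lower. It was *Ntrk2*, which encodes the BDNF receptor TrkB. *Ntrk2* was at 444 to 505 CPM in controls and at 322 to 376 CPM in mutants, a log2 fold change of -0.46 ± 0.07 (FDR 0.00525). It lost its call with any library other than MUT_B left out. The median of the 12 was -0.04, against 0.01 over all genes.

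Other C2 domain proteins went in both directions, as the called copines did in *Sox2* mutants but not in *Nr2f1* mutants. Of 35 genes, 34 were tested. In *Sox2* mutants 5 rose and 3 fell (median log2 fold change -0.03), where 3.9% and 4.19% of all genes tested were called higher and lower. *Syt1*, which encodes the calcium sensor of fast transmitter release, fell from 578 to 790 CPM in controls to 340 to 364 CPM in mutants, a log2 fold change of -0.98 ± 0.11 (FDR 3.75e-04). *Syt13*, a synaptotagmin, fell from 471 to 568 CPM to 327 to 346 CPM, -0.63 ± 0.08 (FDR 7.85e-04). *Syt17* rose, from 1.80 to 2.60 CPM to 4.74 to 5.80 CPM, by 1.31 ± 0.18 (FDR 0.00137). In *Nr2f1* mutants 1 rose and 1 fell (median 0.02), against 1.22% and 1.32% of all genes. *Prkcb*, a calcium-dependent protein kinase C, rose from 191 to 195 CPM to 262 to 286 CPM, by 0.49 ± 0.05 (FDR 5.00e-04), and *Unc13b*, a priming factor of synaptic vesicles, fell from 86.9 to 104 CPM to 62.8 to 73.2 CPM, by 0.52 ± 0.08 (FDR 0.00543). *Prkcb* rose in *Sox2* mutants too, by 0.50 ± 0.08 (FDR 0.00324). *Syt1* was at 690 to 822 CPM in *Nr2f1* controls and at 479 to 602 CPM in *Nr2f1* mutants. Its log2 fold change there was -0.50 ± 0.09, just outside the threshold (FDR 0.0107, edgeR).

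Annexins are the other large family of proteins that bind phospholipids in the presence of calcium. Of 12 annexin genes, 9 were tested. *Anxa7* alone passed in *Sox2* mutants, where 3.9% of all genes were called higher, from 17.5 to 18.9 CPM in controls to 23.4 to 25.9 CPM in mutants, a log2 fold change of 0.43 ± 0.08 (FDR 0.00769). It lost its call without any one library other than CTRL_3. In *Nr2f1* mutants 0 passed edgeR's test, 5 had an unadjusted p below 0.05, all higher, and DESeq2 called 1, *Anxa5*. In *Sox2* mutants 6 of the 9 had an unadjusted p below 0.05, all higher. At that p, 18.7% of all genes tested were higher in *Sox2* mutants, and 13.5% for the *Nr2f1* line. The median log2 fold changes of the 9 were 0.58 and 0.43, beside 0.71 and 0.98 for the meningeal fibroblast markers and 0.38 and 0.44 for 7 endothelial markers. Those of the microglial markers were 1.24 and 0.42, and those of the astrocyte markers 0.69 and 0.27. The annexins summed to 119, 116 and 170 CPM in the *Sox2* controls CTRL_1, CTRL_2 and CTRL_3, where the fibroblast markers summed to 993, 982 and 1930 CPM. In the *Nr2f1* mutants MUT_A, MUT_B and MUT_C the annexins summed to 124, 109 and 152 CPM and the fibroblast markers to 2010, 1080 and 2450 CPM. Annexin sums of the *Sox2* mutants MUT_1, MUT_3 and MUT_4 were 166, 197 and 202 CPM, beside fibroblast sums of 1490, 3310 and 1780 CPM. Those of the *Nr2f1* controls CTRL_B, CTRL_D and CTRL_E were 113, 111 and 117 CPM, beside 762, 1080 and 1140 CPM. The part of any of these cell types in the annexin levels was not tested.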

How the data were processed

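RNA-seq was measured in 12 dLGN libraries. The authors aligned reads with STAR to RefSeq transcripts of the mouse (the submitters' processing notes also name mm10), and deposited expected counts per gene from RSEM, 1 table for each line, without normalization. Of these values 7.77% were not whole, and all were rounded. Columns name a group but not which numbered sample. Counts were tested with edgeR 4.0.16 in R 4.3.3 (filterByExpr with a minimum count of 10 and a minimum total of 15, TMM, glmQLFit and glmQLFTest), with Benjamini-Hochberg adjustment over all genes tested and a threshold of FDR 0.01, mutants against the controls of their own line. SE was the log2 fold change divided by the root of F. Pools are separate samples of 3 animals, and p-values measure the spread between pools. No exact permutation test of 3 against 3 can give a two-sided p below 0.1. The tests were checked on simulated counts. DESeq2 1.42.0 was an alternative. The pair alignments used biopython 1.88, and lengths came from GENCODE vM21. The members and the gene lists were chosen with earlier results of these data known. Named genes were the 9 copines, overlapping tested genes, the targeted genes, the 3 called genes with the smallest p in each list and line, and the 3 nearest profiles of each copine. Reads split between near-identical copies by RSEM cannot be checked here.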

Additional observations from a re-analysis of the deposited data

Results flagged for a closer look

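*Syt13*, a member of the C2 domain list, changed by different amounts in the lines. Its log2 fold change was -0.63 in *Sox2* mutants and -0.05 in *Nr2f1* mutants, and the interaction of line and genotype was -0.57 (95% confidence interval -0.81 to -0.34, FDR 0.00860, edgeR). It was the only gene among the 7 tested copines and the 7 other genes named from the context lists for which that term passed. *Syt13* was named for its small p in *Sox2* mutants, and the term used those same libraries. How the term depends on single libraries or settings is not given here.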

How the results depend on the processing

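The count of 4 tested copines in *Sox2* mutants was 3 to 5 in every alternative except without CTRL_1 or CTRL_2, and 2 to 5 with single libraries left out. *Cpne2* and *Cpne8* passed in all. The count of 1 in *Nr2f1* mutants was 2 with no filter and 3 with the likelihood ratio test, DESeq2, the exact test or FDR below 0.05, and 0 to 2 with single libraries left out (0 without CTRL_B, CTRL_D, CTRL_E or MUT_A, 2 without MUT_B). The count of 0 for the difference between lines was 1 with no filter, upper quartile normalization, a minimum of 10 counts in each library, the likelihood ratio test or FDR below 0.05, 2 with DESeq2, and 0 to 1 with single libraries left out. With DESeq2 the binding proteins numbered 1 and 2, C2 domain genes 7 in *Nr2f1* mutants, and annexins 4 and 1. With single libraries left out these lists ranged over 0 to 3 and 0 to 2 for binding proteins, 4 to 9 and 1 to 6 for C2 domain genes, and 0 to 7 and 0 to 2 for annexins, in *Sox2* and *Nr2f1* mutants in that order. No called copine changed direction in any alternative. Over all genes the calls went from 1261 to between 494 (without CTRL_2) and 2161 (without CTRL_3) in the *Sox2* line and from 396 to between 133 (without MUT_A) and 868 (without MUT_B) in the *Nr2f1* line, and DESeq2 gave 2421 and 1095. Upper quartile normalization moved the share of lower calls in the *Sox2* line from 51.8% to 43%. A fit with a library left out holds fewer samples, and the calls rose without CTRL_3 and without MUT_B. The cause of these changes was not tested. No paired analysis was possible because the columns do not carry the replicate numbers of the labels.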

Other observations

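The male-specific genes *Ddx3y*, *Eif2s3y*, *Kdm5d* and *Uty* summed to 0 CPM in the *Nr2f1* mutant library MUT_A and to 32.5 to 114 CPM in the other 11 libraries. *Cpne4*, *Cpne8* and *Cpne9* in MUT_A, at 20.6, 64.8 and 25.4 CPM, lay within the range of the other *Nr2f1* mutant libraries.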
